A study of Mus musculus with 8 samples.

Results

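The transforming growth factor beta (TGF-beta) pathway was followed here through 10 of its genes in mature CD8SP thymocytes that carry or lack Ndrg3. The 10 genes were fixed by name and were found by gene symbol among the 47937 rows of the count table, where each matched 1 row. They encode the ligand (Tgfb1), the receptors (Tgfbr1, Tgfbr2 and Tgfbr3), the signal-carrying SMADs (Smad2, Smad3 and Smad4), the inhibitory SMAD (Smad7) and the nuclear repressors of SMAD (Ski and Skil). RNA came from thymocytes sorted as CD8SP TCRb+ MHC-I high, from 4 Ndrg3ctrl and 4 Ndrg3TKO biological replicates aged 6 to 7 weeks. Ndrg3TKO mice were Ndrg3 fl/fl;Lck-cre+ and Ndrg3ctrl mice Ndrg3 +/fl;Lck-cre+, so that both groups carried the Cre transgene and the controls had 1 allele open to deletion. Per the study's methods the proximal Lck promoter drives this Cre, which acts from early T cell development on, so the deletion is directed at thymocytes and their descendants. The sorted cells were not cloned, and each library is a mixed population.

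TGF-beta is secreted in a latent form and, once released, binds a pair of type II receptors (Tgfbr2), which then phosphorylate a pair of type I receptors (Tgfbr1). The type I receptor phosphorylates Smad2 and Smad3, and these enter the nucleus together with the shared partner Smad4. Tgfbr3, or betaglycan, is a co-receptor that presents the ligand. Smad7 is induced by the pathway and blocks the type I receptor, while Ski and Skil hold SMAD target genes down until they are degraded on signalling. In T cells the pathway restrains effector differentiation, favours the integrin CD103 on CD8 cells and is needed for normal homeostasis of the naive pool.

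Values below are CPM, the reads of a gene relative to all reads of its library, scaled by the TMM method for differences in library composition, and levels of different genes are set side by side only per kilobase of exon (RPKM). Total counts ranged from 21126698 to 32668081 per library, with a median of 27972527.5 in Ndrg3ctrl and 31022668.5 in Ndrg3TKO (exact permutation test over the library totals, 2-sided, p = 0.0571). Ndrg3, the targeted gene, had 79.3, 81.5, 81.2 and 80.9 CPM in Ndrg3ctrl replicates 1 to 4 and 50.4, 48.4, 53.1 and 55.3 CPM in Ndrg3TKO, so each Ndrg3TKO library lay below each control library. Ndrg3 fell by 0.64 on the log2 scale (95% interval -0.75 to -0.53, adjusted p = 1.04e-05 from edgeR), and reads over the deleted part cannot be told apart from those over the rest of the gene in a table of 1 count per gene. Per the study's methods the deletion removes 1 exon, and its Western blots found efficient loss of Ndrg3 protein in Ndrg3TKO thymocytes. The sort label was checked on its markers: Cd3e, Cd8a, Cd8b1, Trac, Runx3 and H2-K1 summed to 5143 to 5801 CPM in Ndrg3ctrl and 5297 to 5670.3 CPM in Ndrg3TKO. The 3 B cell markers reached at most 0.637 CPM in sum, the 3 myeloid markers at most 1.08 CPM, and all 4 platelet and erythroid markers were at 0. Immature DP thymocyte markers summed to 17.1 to 26.4 CPM in Ndrg3ctrl and 21.4 to 29 CPM in Ndrg3TKO, and 0 of them were called. Most of this sum was Dntt, which was higher in each Ndrg3TKO library (19.2 to 25.4 CPM) than in each control library (14.2 to 18.7 CPM). The other DP markers overlapped between the groups, and the part of Dntt in the results was not tested. Gamma delta T cell markers summed to 10.7 to 14 and 10.6 to 14.4 CPM, and markers of CD4 T and Treg cells to 5.78 to 10.4 and 9.09 to 16.4 CPM. The latter sum was mostly Il2ra (2.6 to 6.06 and 4.76 to 9.35 CPM) and Foxp3 (2.6 to 4.37 and 3.72 to 6.55 CPM). Cd4 (0.246 to 1.48 and 0.461 to 0.762 CPM) and Zbtb7b (0.11 to 0.402 and 0.0314 to 0.199 CPM) did not rise with them. The groups overlapped for each of these 4 markers, and their part in the results was not tested. Thymic epithelial markers summed to 1.68 to 3.05 CPM in Ndrg3ctrl and 1.2 to 2.5 CPM in Ndrg3TKO, and fibroblast markers to 2.51 to 3.8 and 2.07 to 3.01 CPM. The NK and NKT cell markers did not move together. Klrb1c, looked up after its values were seen, rose from 0.11 to 0.639 CPM in Ndrg3ctrl to 1.48 to 2.04 CPM in Ndrg3TKO (adjusted p = 0.00149 from edgeR). Zbtb16 had 0.146 to 0.335 CPM in Ndrg3ctrl and 0.0314 to 0.0921 CPM in Ndrg3TKO, too few reads to be tested, and Ncr1 was at 0 in every library. Their sum, 0.256 to 0.934 CPM in Ndrg3ctrl and 1.51 to 2.12 CPM in Ndrg3TKO, was thus mostly Klrb1c, and their part in the results was not tested. Y-linked genes were counted in Ndrg3ctrl replicate 2 (353 CPM) and Ndrg3TKO replicates 2 and 3 (389 and 413 CPM) and came to at most 0.0732 CPM in the other libraries. Mice of both sexes were used per the study's methods, and the labels do not give the sex of a library.

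The RNA levels of the ligand, the receptors, the SMADs and the repressors differed little between Ndrg3TKO and Ndrg3ctrl. None of them passed an adjusted p-value of 0.05 (edgeR, quasi-likelihood fit, adjusted over all genes), against 1.15% of the 14633 tested genes, of which 0.793% were called higher and 0.355% lower in Ndrg3TKO. DESeq2 also called 0 of them, as did edgeR with the Y-linked expression of each library as a covariate. Of 15 alternative settings, 8 of which left out 1 library each, 1 called any of the 10 genes. It blocked on replicate number, called 800 of all tested genes, and among the 10 called Tgfbr2 and Tgfbr3 (adjusted p = 0.0407 and 0.0339 from edgeR). The labels do not say what the replicate number marks. Over the 15 settings the adjusted p-values of Tgfbr2 and Tgfbr3 ranged from 0.0407 to 0.627 and from 0.0339 to 0.871 (edgeR or DESeq2). In the edgeR test with no block or covariate, 1 of the 10, Tgfbr2, had an unadjusted p under 0.05, while 10.9% of all tested genes were under that limit. In 0 of the 10 did the groups lie apart without overlap, which was seen in 7.04% of the tested genes (3.44% with Ndrg3TKO higher and 3.59% with Ndrg3TKO lower). All 10 passed the filter on low counts, with between 1301 and 14509 reads in each library, so their precision was high: standard errors of the log2 fold change ran from 0.0471 to 0.0824, each under the median of 0.0916 over all tested genes. The log2 fold changes lay between -0.15 and 0.15, with 5 of them positive and 5 negative, and those of Smad2, Smad3, Ski and Skil rounded to 0.00. Their median size was 0.0309, against 0.0883 over all tested genes, which include genes with far fewer reads. No comparison with genes of similar counts was made. The 95% intervals together reached from -0.28 to 0.33 on the log2 scale, that is, from 0.824 to 1.25 times the control level. A change beyond those bounds in any one of these RNAs lies outside its interval, whereas smaller changes remain possible. Because whole sorted populations were sequenced, fewer cells expressing a gene and less RNA in each cell cannot be told apart.

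**Figure D1:**
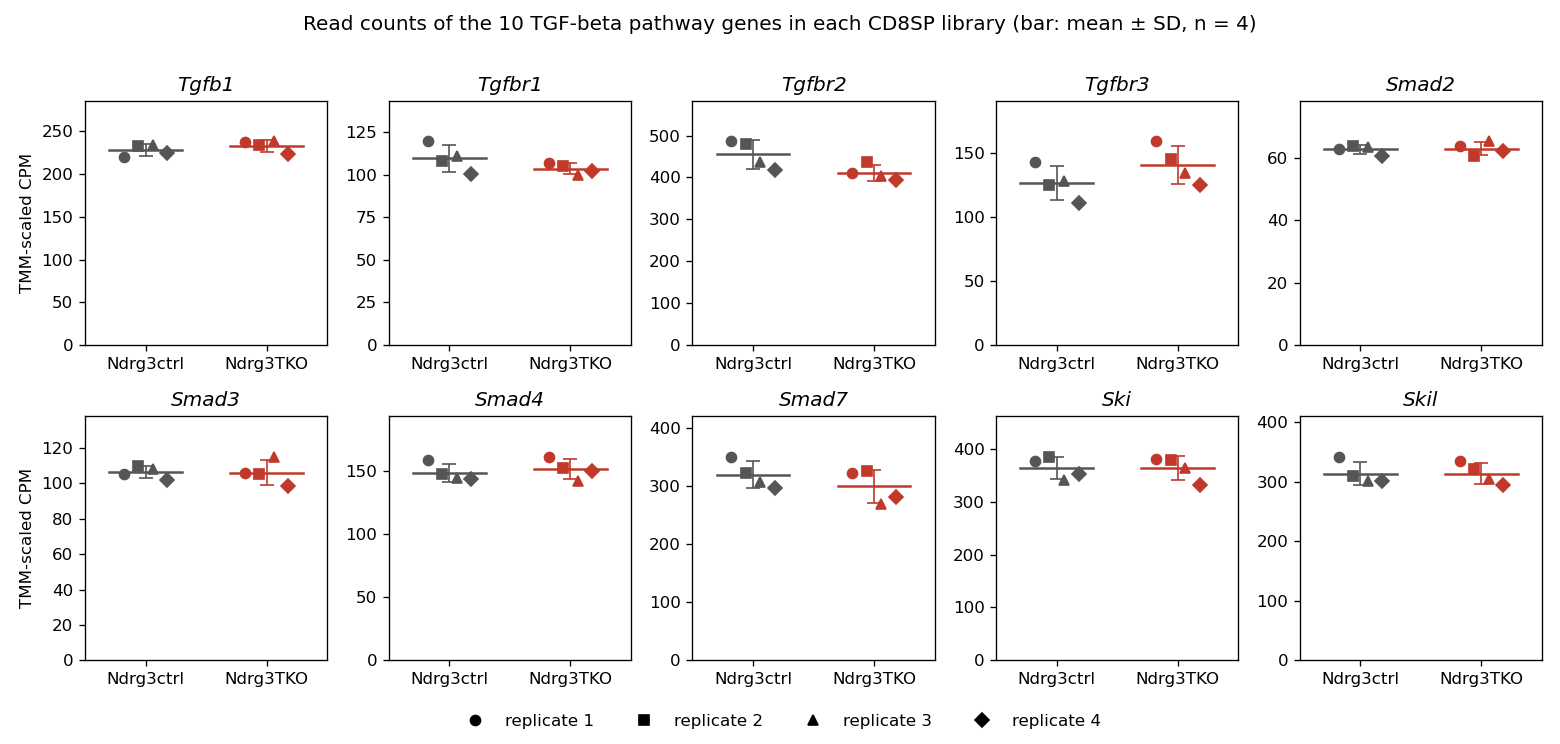
TMM-scaled CPM (y axes, from 0) of the 10 TGF-beta pathway genes in the 4 Ndrg3ctrl (grey) and 4 Ndrg3TKO (red) libraries, with 1 symbol shape per replicate number, and bars for the mean ± SD. In every panel the groups overlap; Tgfbr2 comes nearest to separation, with 3 of 4 Ndrg3TKO libraries below the lowest control library.

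The ligand gene Tgfb1 (ENSMUSG00000002603, chromosome 7 of GRCm38 from 25687002 to 25705077, plus strand) had 220.2, 233, 234 and 224 CPM in Ndrg3ctrl replicates 1 to 4 and 237, 234, 238 and 223 CPM in Ndrg3TKO. The 2 sets of values interleave. The means were 228 ± 6.76 and 233 ± 6.89 CPM (SD, n = 4 each), a log2 fold change of 0.03 with a 95% interval from -0.07 to 0.13. Tgfb1 RNA was thus present in the sorted CD8SP thymocytes of both groups, while reads of the related ligand genes were few. Tgfb2 ranged from 0.251 to 0.86 CPM over all libraries and Tgfb3 from 1.32 to 2.34 CPM. Neither passed the threshold (adjusted p = 0.831 and 0.711 from edgeR), and at these counts their intervals were wide, from -0.53 to 1.14 and from -0.63 to 0.18 on the log2 scale.

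Of the receptors, Tgfbr2 (ENSMUSG00000032440, chromosome 9, 116084293 to 116175360, minus strand) showed the smallest p-value of the 10 genes. Its CPM were 486, 481, 436 and 417 in Ndrg3ctrl and 409.9, 438, 404 and 393 in Ndrg3TKO. Replicates 1, 3 and 4 of Ndrg3TKO lay below every control library, and replicate 2, at 438 CPM, lay just above control replicates 3 and 4. The means were 455 ± 34 and 411 ± 19 CPM (SD, n = 4 each), 9.7% lower in Ndrg3TKO (log2 fold change -0.15, standard error 0.0614, 95% interval -0.28 to -0.02, adjusted p = 0.398 from edgeR). This interval excludes 0 for the gene taken alone, and the adjusted p over all tested genes does not pass. Blocking on replicate number brought the adjusted p of Tgfbr2 to 0.0407 (edgeR), with the same log2 fold change of -0.15.

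Tgfbr1, the type I receptor gene (ENSMUSG00000007613, chromosome 4, 47353222 to 47414931, plus strand), had 119.5, 108, 111 and 100.4 CPM in Ndrg3ctrl and 107, 105, 100.1 and 102 CPM in Ndrg3TKO. The control libraries spread more widely than the Ndrg3TKO libraries and covered all but 1 of them. The log2 fold change was -0.08 (95% interval -0.20 to 0.04, adjusted p = 0.636 from edgeR). Set per kilobase of exon, the type II receptor RNA exceeded the type I receptor RNA in each library, by 3.14 to 3.54 times in Ndrg3ctrl and 3.05 to 3.33 times in Ndrg3TKO, so that this ratio overlapped between the groups.

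The co-receptor gene Tgfbr3 (ENSMUSG00000029287, chromosome 5, 107106570 to 107289629, minus strand) had a higher mean in Ndrg3TKO, with 143, 125, 128 and 111 CPM in Ndrg3ctrl and 159, 145, 134 and 125 CPM in Ndrg3TKO. Replicates 1 and 2 of Ndrg3TKO exceeded every control, while replicates 3 and 4 fell within the control range. The log2 fold change of Tgfbr3 was 0.15 (standard error 0.0824, 95% interval -0.03 to 0.33, adjusted p = 0.556 from edgeR). With the replicate number as a block its adjusted p was 0.0339 (edgeR). Tgfbr3 had the largest spread of the 10 genes within each group, a coefficient of variation of 10.2% in Ndrg3ctrl and 10.4% in Ndrg3TKO. A short predicted transcript, Gm43422, shares 297 bases (4.54% of the exonic length) with Tgfbr3 on the same strand and had 1874 reads over all libraries, and the handling of such shared reads is not given in the sources used here.

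The promoters of Tgfbr1 and Tgfbr2 are shown because this pair binds the ligand and passes on the signal, and that of Eng because it was the 1 receptor gene called lower, described after the 10 genes. Each sequence is RefSeq's on GRCm38.p6, reads from 250 bases before to 50 bases after the transcription start in the direction of the gene, and has GC boxes (GGGCGG on either strand) in capitals. Tgfbr1 is at chr4:47352972-47353271 on the plus strand, Tgfbr2 at chr9:116175314-116175613 on the minus strand and Eng at chr2:32646345-32646644 on the plus strand.
Tgfbr1: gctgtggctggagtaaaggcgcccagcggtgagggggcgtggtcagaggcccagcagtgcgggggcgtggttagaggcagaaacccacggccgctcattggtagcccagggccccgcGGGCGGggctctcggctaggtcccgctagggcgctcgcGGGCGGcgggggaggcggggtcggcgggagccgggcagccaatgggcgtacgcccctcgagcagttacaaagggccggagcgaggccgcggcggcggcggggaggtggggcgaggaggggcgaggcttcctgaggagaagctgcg
Tgfbr2: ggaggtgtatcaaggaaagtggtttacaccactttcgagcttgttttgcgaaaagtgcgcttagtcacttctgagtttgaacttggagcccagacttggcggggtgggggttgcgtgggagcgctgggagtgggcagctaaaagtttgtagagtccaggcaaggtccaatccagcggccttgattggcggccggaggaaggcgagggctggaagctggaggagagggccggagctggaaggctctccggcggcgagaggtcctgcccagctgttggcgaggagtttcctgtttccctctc
Eng: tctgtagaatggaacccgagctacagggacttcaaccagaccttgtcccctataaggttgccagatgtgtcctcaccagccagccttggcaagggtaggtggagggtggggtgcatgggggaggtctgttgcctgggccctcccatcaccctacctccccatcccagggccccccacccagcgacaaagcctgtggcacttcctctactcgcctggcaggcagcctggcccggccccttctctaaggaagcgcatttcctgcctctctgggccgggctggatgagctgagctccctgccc
Tgfbr1 has 2 such boxes and a GC content of 74.7%, Tgfbr2 has 0 and 59%, and Eng has 0 and 63.3%. The box is found in 35.7% of the 32851 promoters in the table. The palindromic SMAD site GTCTAGAC and the CAGA element CAGACA, searched on both strands, have no match in these 3 windows, and are found in 0.213% and 21% of all promoters. RefSeq has a second start for Tgfbr1, whose window (chr4:47385966-47386265, plus strand) has 1 CAGACA, 0 GC boxes and a GC content of 52%. The table held promoters for 5 of the 10 genes, Tgfb1, Tgfbr1, Tgfbr2, Smad3 and Ski.

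The signal-carrying SMADs had nearly the same mean in both groups. Smad2 (ENSMUSG00000024563, chromosome 18) had 62.8, 63.9, 63.6 and 60.7 CPM in Ndrg3ctrl and 63.7, 60.5, 65.3 and 62.1 CPM in Ndrg3TKO. The log2 fold change was 0.00, with an interval from -0.10 to 0.11. Smad3 (ENSMUSG00000032402, chromosome 9, 63646767 to 63757994, minus strand) had 105, 109.9, 108 and 102 CPM against 106, 105, 115 and 98.2 CPM. Its highest and its lowest value both belonged to Ndrg3TKO libraries (replicates 3 and 4), and the log2 fold change was 0.00 (-0.12 to 0.12). Per kilobase of exon, Smad3 RNA was 2.68 ± 0.0313 times that of Smad2 in Ndrg3ctrl and 2.68 ± 0.133 times in Ndrg3TKO (SD, n = 4 each).

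Smad4, the shared partner (ENSMUSG00000024515, chromosome 18), had 158, 147, 144 and 143 CPM in Ndrg3ctrl and 161, 152, 142 and 149.7 CPM in Ndrg3TKO. Both the highest and the lowest library were again Ndrg3TKO, and the log2 fold change was 0.03 (-0.08 to 0.15). The adjusted p-values of Smad2, Smad3 and Smad4 were 0.989, 0.999 and 0.882 (edgeR).

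Among the inhibitors, Smad7 (ENSMUSG00000025880, chromosome 18), itself a target of the pathway, had 350.1, 322, 306 and 297 CPM in Ndrg3ctrl and 322, 325, 269 and 281 CPM in Ndrg3TKO. Replicates 3 and 4 of Ndrg3TKO lay below the control range and the other two within it. The log2 fold change was -0.09 (95% interval -0.24 to 0.06, adjusted p = 0.697 from edgeR).

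The repressors Ski and Skil, of which Skil is itself induced by TGF-beta, had the same means in both groups. Ski (ENSMUSG00000029050, chromosome 4, 155154075 to 155222592, minus strand) had 377, 385, 340.2 and 352 CPM in Ndrg3ctrl and 380.5, 378, 363 and 332 CPM in Ndrg3TKO, with means of 364 ± 21 and 364 ± 22.4 CPM. Skil (ENSMUSG00000027660, chromosome 3, 31095058 to 31122577, plus strand) had 342, 309.7, 301 and 302 CPM against 334, 321, 305 and 295 CPM, with means of 314 ± 19.4 and 314 ± 17.3 CPM. Both log2 fold changes were 0.00, with intervals from -0.13 to 0.13 for Ski and from -0.12 to 0.12 for Skil. For both genes 1 Ndrg3TKO library, replicate 4, lay below the lowest control library.

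**Figure D2:**
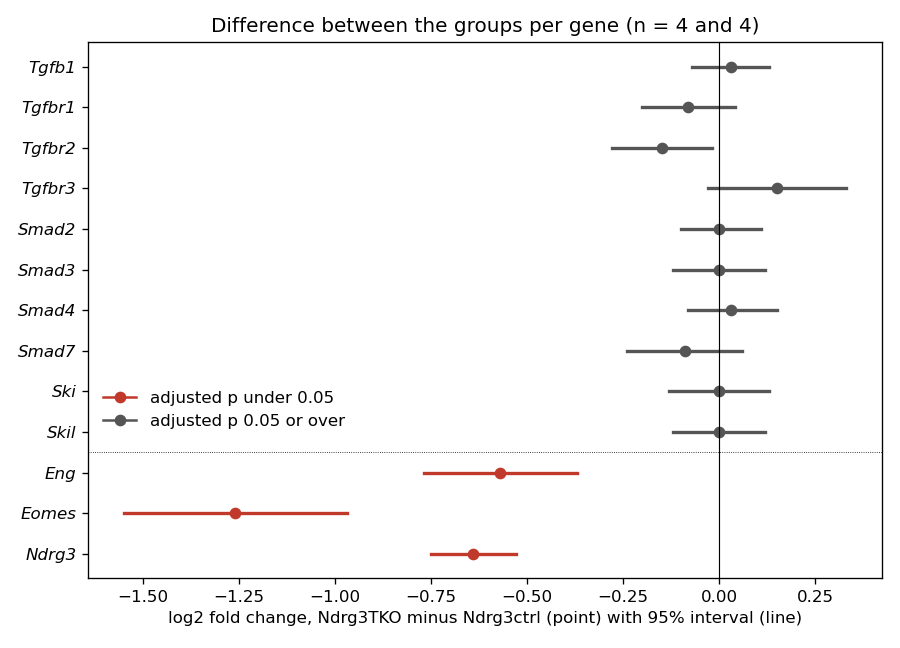
Log2 fold change of Ndrg3TKO against Ndrg3ctrl (x axis; points) with its 95% interval (lines) for the 10 genes and, under the dotted line, for Eng, Eomes and Ndrg3. The 10 points lie between -0.15 and 0.15, while Eng, Eomes and Ndrg3 (red, adjusted p under 0.05) lie at -0.57, -1.26 and -0.64.

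Set per kilobase of exon, the inhibitors Smad7 and Ski were the most abundant of the 10 RNAs and Smad2 the least. Smad7 stood highest in Ndrg3ctrl at 70.5 ± 5.19 RPKM (SD, n = 4), followed by Ski (65.4 ± 3.78), Tgfbr2 (55.6 ± 4.15), Tgfb1 (45.2 ± 1.34), Smad4 (39.9 ± 1.87) and Skil (32.4 ± 2). Tgfbr3 (19.4 ± 1.97), Smad3 (19.2 ± 0.583), Tgfbr1 (16.8 ± 1.21) and Smad2 (7.15 ± 0.165) followed. Smad7 exceeded 95.6% of the tested genes by this measure and Smad2 54.1%. Over the 8 libraries of both groups together, the ranges of Smad7 and Ski overlapped, as did those of Tgfbr3 and Smad3 and those of Smad3 and Tgfbr1. The other neighbours had separate ranges. Such pooled ranges do not show how neighbours stood within each library, which was not compared here. In Ndrg3TKO the means were 66.2 ± 6.37 for Smad7, 65.4 ± 4.03 for Ski, 50.2 ± 2.32 for Tgfbr2 and 7.16 ± 0.234 for Smad2. The order rests in part on the length used. With the length of the longest transcript in place of all exons together, Tgfb1 (2573 in place of 5042 bases) came first at 88.6 ± 2.63 RPKM, Skil (46.7) passed Smad4 (43.7), and Smad3 (20.9) and Tgfbr3 (20.8) changed places.

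**Figure D3:**
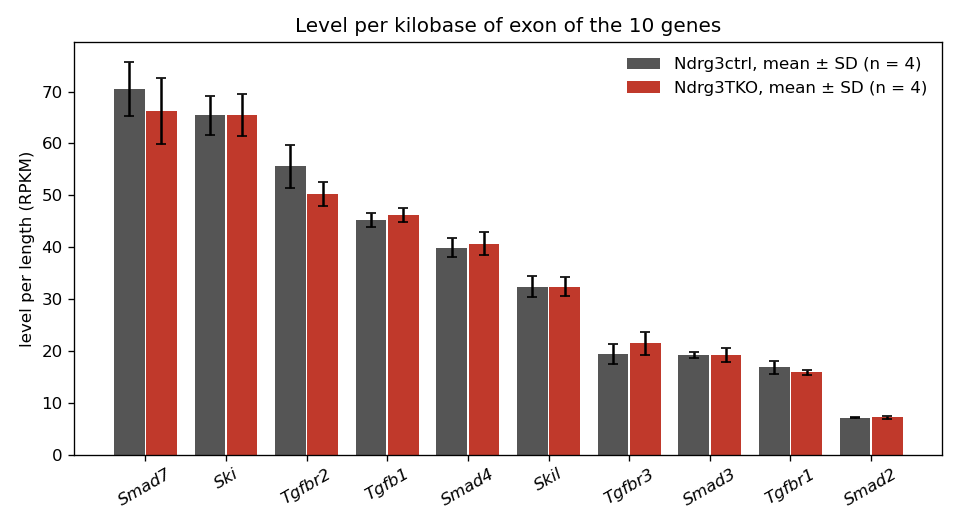
Level per kilobase of exon (y axis, RPKM from 0) of the 10 genes in Ndrg3ctrl (grey) and Ndrg3TKO (red), as means with SD (n = 4 each), in the order of the control means. The bars of the 2 groups stand close together for each gene, from Smad7 at 70.5 and 66.2 RPKM to Smad2 at 7.15 and 7.16 RPKM.

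Within a group, several genes were highest or lowest in the same library. Of the 10 genes, 6 had their highest control value in Ndrg3ctrl replicate 1 and 7 their lowest in replicate 4. In Ndrg3TKO, 5 had their highest value in replicate 1 and 6 their lowest in replicate 4. The median coefficient of variation of the 10 genes was 5.99% in Ndrg3ctrl and 5.37% in Ndrg3TKO. Over all tested genes, which include genes with far fewer reads, it was 9.3% and 8.24%. The genes whose pattern over the 8 libraries was most like that of Tgfbr2 were Cbfb, the partner subunit of the RUNX factors, then Rrn3 and Ermp1. Their mean-centred log2 CPM differed from those of Tgfbr2 by a root mean square of 0.0304, 0.0334 and 0.0334, against a median of 0.172 over all tested genes, and none of the 3 passed the threshold (adjusted p = 0.565, 0.552 and 0.627 from edgeR).

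Beyond the 10, the pathway was followed in 71 further genes listed by role, of which 54 had enough counts to be tested. In these, 2 were called in edgeR's test, both lower in Ndrg3TKO (0.355% of all tested genes were called lower), and 0 were called higher. The lower ones were the co-receptor gene Eng and Eomes. Eomes had been seen to be lower in these data before the lists were drawn up, so its call adds no independent evidence.

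Eng encodes endoglin, a co-receptor of the TGF-beta superfamily best known from blood vessel endothelium, where it binds together with the receptor Acvrl1. Its CPM were 95.8, 92.6, 93.6 and 104 in Ndrg3ctrl and 70.8, 57, 55.9 and 76.1 in Ndrg3TKO. Every Ndrg3TKO library was below every control library. Eng fell by 0.57 on the log2 scale (standard error 0.0921, 95% interval -0.77 to -0.37, adjusted p = 0.00925 from edgeR), which is 32.6% lower, and its log2 fold change stayed between -0.65 and -0.50 with each library left out in turn. The endothelial markers Pecam1 and Cdh5 summed to 154 to 177 CPM in Ndrg3ctrl and 147 to 161 CPM in Ndrg3TKO. Nearly all of this sum was Pecam1 (152 to 175 and 146 to 159 CPM), so the sum alone does not measure endothelial content. Cdh5, looked up after its values were seen, had 1.71, 2.36, 1.52 and 2.23 CPM in Ndrg3ctrl and 1.09, 1.35, 1.5 and 1.04 CPM in Ndrg3TKO. It was lower in each Ndrg3TKO library with an adjusted p that does not pass (adjusted p = 0.244 from edgeR). The part of Cdh5 in the result was not tested. Acvrl1, looked up after its values were seen, had 61.6 ± 5.46 CPM in Ndrg3ctrl and 65.8 ± 7.6 CPM in Ndrg3TKO (SD, n = 4 each, adjusted p = 0.738 from edgeR).

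Per kilobase of exon, the ratio of the co-receptor Tgfbr3 to the receptor Tgfbr2 was 0.367, 0.324, 0.368 and 0.334 in Ndrg3ctrl and 0.484, 0.415, 0.414 and 0.398 in Ndrg3TKO. Each Ndrg3TKO library exceeded each control library in this ratio. It was chosen after the opposite signs of the 2 genes were known, so it restates them and is given as a description with no test. The ratios of Tgfbr2 to Tgfbr1, Smad3 to Smad2, Smad4 to Smad2 and Ski to Skil overlapped between the groups.

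**Figure D4:**
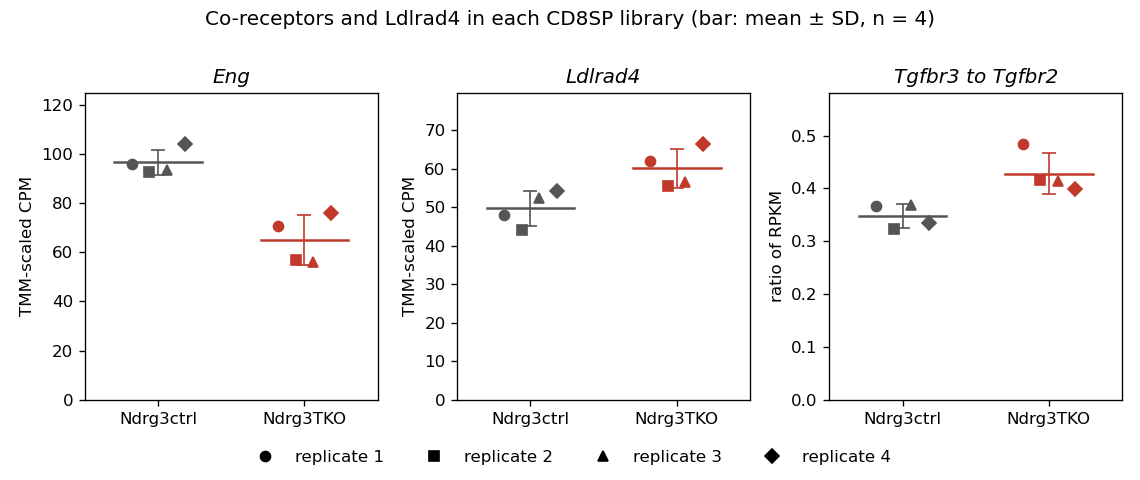
TMM-scaled CPM of Eng and Ldlrad4 (y axes from 0) and the ratio of RPKM of Tgfbr3 to Tgfbr2 (y axis from 0) in the 4 Ndrg3ctrl (grey) and 4 Ndrg3TKO (red) libraries, with 1 symbol shape per replicate number and bars for the mean ± SD. In each panel the groups lie apart, Eng lower in Ndrg3TKO (55.9 to 76.1 against 92.6 to 104 CPM) and the other 2 measures higher.

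The rest of the superfamily's receptors gave no further call: of the list of 12, 10 were tested, 5 had positive and 5 negative log2 fold changes, and 1, Eng, was called. Acvr1b, the type I receptor for activin, which also signals through Smad2 and Smad3, had 54.1 ± 4.32 CPM in Ndrg3ctrl and 56 ± 4.66 CPM in Ndrg3TKO (log2 fold change 0.05, interval -0.10 to 0.20). Bmpr2, the type II receptor for bone morphogenetic proteins (BMPs), had 18.2 ± 1.44 and 20.8 ± 2.62 CPM (log2 fold change 0.19, interval -0.01 to 0.40, adjusted p = 0.482 from edgeR). Its highest value, 24.7 CPM in Ndrg3TKO replicate 1, stood apart from the 19.1 to 19.8 CPM of the other 3 libraries of that group.

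The SMADs of the BMP branch pointed in opposite directions. Smad1 had 34.8, 33.5, 34 and 31.9 CPM in Ndrg3ctrl and 32.8, 28.1, 29.8 and 29.9 CPM in Ndrg3TKO, with an adjusted p of 0.401 in edgeR's test for a log2 fold change of -0.15. Smad5 had 96.8 ± 4.35 CPM in Ndrg3ctrl and 105 ± 5.31 CPM in Ndrg3TKO (SD, n = 4 each), with an adjusted p of 0.455 in edgeR's test for a log2 fold change of 0.11. For both genes the groups overlapped and neither passed the threshold. The inhibitory Smad6 and the third BMP SMAD, Smad9, had too few reads to be tested, with at most 11 and 3 reads in any library. Transcripts of the 11 genes listed for ligands and their activation gave 7 tested genes and 0 calls.

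Of 20 genes for SMAD partners, E3 ubiquitin ligases, deubiquitinases and phosphatases, 17 were tested and 0 were called, with a median log2 fold change of 0.04 against -0.0033 over all tested genes. Smurf2, a ligase that targets the receptors and SMADs, had 252 ± 11.7 CPM in Ndrg3ctrl and 231 ± 10.7 CPM in Ndrg3TKO (log2 fold change -0.12, adjusted p = 0.41 from edgeR), and Smurf1 had 95.8 ± 2.51 and 93.3 ± 6.51 CPM (log2 fold change -0.04). Rnf111, which degrades Ski and Skil, had 162 ± 4.51 and 168 ± 3.27 CPM, Trim33, a SMAD ligase and partner, 195 ± 6.66 and 199.9 ± 5.34 CPM, Nedd4l 55.7 ± 1.97 and 59.4 ± 3.8 CPM, and the deubiquitinase Usp15 92.6 ± 4.98 and 97.5 ± 3.51 CPM (SD, n = 4 each). Their log2 fold changes were 0.05, 0.04, 0.09 and 0.07, and none passed. Zfyve9 (SARA), the membrane anchor for Smad2 and Smad3, had at most 5 reads in any library and was not tested. The 6 kinases and adaptors that carry SMAD-independent signals (Map3k7, Tab1, Tab2, Traf6, Mapk14 and Mapk8) were all tested and 0 were called. Looked up after their values were seen, Tab1 and Mapk14 of these 6, and Wwp1 and Ldlrad4 of the 17 SMAD partners, had every Ndrg3TKO library above every control library, as did 3.44% of all tested genes. Tab1 had 40.9 to 46.4 CPM in Ndrg3ctrl and 46.4 to 48.1 CPM in Ndrg3TKO (apart before rounding), Mapk14 142 to 148 and 150.1 to 158 CPM, and the ligase Wwp1 44.2 to 51.3 and 51.4 to 58.5 CPM, with adjusted p-values of 0.444, 0.515 and 0.35 from edgeR.

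Of 10 genes that TGF-beta is known to raise, 7 were tested and 0 were called. Their median log2 fold change was 0.04, 6 of them positive (as were 7140 of all 14633 tested genes) and 1 negative. Smad7 and Skil, also induced by the pathway, are not on this list and had log2 fold changes of -0.09 and 0.00. An unadjusted p under 0.05 in the higher direction was seen in 2 of the 7, Ldlrad4 and Foxp3, against 5.34% of all tested genes, and the groups lay apart in 1, Ldlrad4. Itgae, the gene of the integrin chain CD103, had 901, 854, 861 and 802 CPM in Ndrg3ctrl and 891, 859, 885 and 815 CPM in Ndrg3TKO. Every Ndrg3TKO value fell inside the control range, and the log2 fold change was 0.01 (interval -0.12 to 0.14). Foxp3, the factor of regulatory T cells, looked up after its values were seen, had 3.52, 4.37, 3.32 and 2.6 CPM in Ndrg3ctrl and 5.2, 4.43, 6.55 and 3.72 CPM in Ndrg3TKO (log2 fold change 0.53, adjusted p = 0.293 from edgeR). It lay above the highest control in 3 of 4 Ndrg3TKO libraries, and it is also one of the CD4 T and Treg cell markers summed above. Klf10, an early response gene of the pathway, had 42.2 ± 1.14 and 44.2 ± 3.94 CPM (log2 fold change 0.07), and Tgif1, a SMAD corepressor, 30.2 ± 2.41 and 31.2 ± 0.381 CPM (log2 fold change 0.04).

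The related feedback inhibitors Pmepa1 and Ldlrad4, which keep Smad2 and Smad3 from the receptor, did not pass the threshold, and their difference from one another was not tested. Pmepa1 had 114, 114, 108 and 112 CPM in Ndrg3ctrl and 106, 98.8, 105 and 111 CPM in Ndrg3TKO (log2 fold change -0.09, interval -0.20 to 0.01, adjusted p = 0.544 from edgeR). Ldlrad4 had 48, 44.2, 52.5 and 54.1 CPM in Ndrg3ctrl and 62.1, 55.5, 56.6 and 66.4 CPM in Ndrg3TKO. For Ldlrad4 each Ndrg3TKO library exceeded each control library. The log2 fold change of Ldlrad4 was 0.27 (standard error 0.0743, interval 0.11 to 0.43), 20.9% above the control level, with an adjusted p of 0.121 in edgeR's test. Over the alternative settings the adjusted p ranged from 0.00302 to 0.363 (edgeR or DESeq2) and passed in 3 of 15. Those were the fits with no filter on low counts, with the replicate number as a block and with the Y-linked covariate.

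Of 11 genes that TGF-beta is known to lower in T cells, 8 were tested. Each of the 8 had a negative log2 fold change (as did 7493 of all 14633 tested genes), with a median of -0.21. Of these, 1 was called, Eomes, the T-box factor that had been seen to be lower in these data before the list was drawn up, so its place here is no independent evidence. It had 14.3, 15.8, 12.6 and 18.3 CPM in Ndrg3ctrl and 5.2, 7.38, 6.98 and 5.89 CPM in Ndrg3TKO, and fell by 1.26 on the log2 scale (standard error 0.135, adjusted p = 0.00017 from edgeR). Of the 8, 5 had an unadjusted p under 0.05, Eomes among them, against 5.51% of all tested genes in this direction. The whole list was drawn up with earlier results of these data known, so these counts are a description and no independent evidence. The other 4 of the 5 were looked up after their values were seen. Klf2, a factor for thymic exit, had 332, 367, 295 and 335 CPM in Ndrg3ctrl and 281, 308, 257 and 266 CPM in Ndrg3TKO (log2 fold change -0.26, adjusted p = 0.13 from edgeR). S1pr1, the exit receptor that Klf2 controls, had 404, 428, 359.8 and 393 CPM against 328, 365, 353 and 342 CPM (log2 fold change -0.19, adjusted p = 0.203 from edgeR). For both, 3 of the 4 Ndrg3TKO libraries lay below the lowest control. Klf2, S1pr1 and Myc were called both with the replicate number as a block and with Y-linked expression as a covariate, and Klf2 also with no filter on low counts. Myc had 132 ± 18 and 113 ± 12.3 CPM (adjusted p = 0.428 from edgeR), and Gzmb, a granule protease with under 1 CPM in every library, had 0.682 ± 0.176 and 0.361 ± 0.164 CPM (adjusted p = 0.372 from edgeR).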

How the data were processed

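Total RNA of CD8SP TCRb+ MHC-I high thymocytes from 4 Ndrg3ctrl and 4 Ndrg3TKO mice was made into stranded, rRNA-depleted libraries. The authors deposited raw read counts per gene, made per the labels with cutadapt, STAR and featureCounts on GRCm38.p4, and the strand setting of the counting and its handling of shared reads are not given in the sources used here. Of the 47937 identifiers, 47224 (98.5%) matched a symbol in the annotation used here. Counts were fitted on the whole table with edgeR 4.0.16 in R 4.3.3 (filterByExpr, TMM factors, robust glmQLFit, glmQLFTest) and adjusted by the Benjamini-Hochberg method over 14633 genes. The alternatives were DESeq2 1.42.0, other scalings and filters, the replicate number as a block, Y-linked expression as a covariate, and each library left out. RPKM used the union of annotated exons. The 10 genes, the gene lists and the tests were chosen with earlier results of these data known. The genes named were all 10, Ndrg3 and 20 pathway genes fixed by name, listed genes past the threshold, and the 3 genes most like the one with the smallest p. Cell type markers were named from fixed lists, and Gm43422 for its overlap with Tgfbr3, after its values were seen. Others are named as looked up after their values were seen. A floor of 3 counts came to 0.0921 to 0.147 CPM per library and covers counting error only. Per-gene tests were tested on simulated data with 200 of the better-counted genes changed. At the threshold of 0.05, edgeR recovered 98.0% of log2 changes of 1 and 74.0% of those of 0.5, and 7.03% of its calls were false. DESeq2 recovered 98.0% and 79.0%, and 13.2% of its calls were false.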

Additional observations from a re-analysis of the deposited data

Results flagged for a closer look

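In 4 of 70 groups of 4 libraries checked, 1 library stood apart from the other 3 by Dixon's test at the 95% level, which chance alone gives in about 1 group in 20. Bmpr2 had 24.7 CPM in Ndrg3TKO replicate 1 against 19.1 to 19.8 CPM in the other 3 libraries of the group. Zfyve9, at 5 reads or fewer per library, had 0.154 CPM in Ndrg3TKO replicate 4 against 0.0314 to 0.0334 CPM. Mitochondrial genes took 0.636% of the reads in Ndrg3ctrl replicate 4 against 0.803% to 0.82% in the other controls. Y-linked genes had 353 CPM in Ndrg3ctrl replicate 2 against at most 0.0732 CPM in the other controls. Similar levels were seen in Ndrg3TKO replicates 2 and 3 (389 and 413 CPM). The study's methods state that mice of both sexes were used, and the labels do not give the sex.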

How the results depend on the processing

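With 4 libraries per group, log2 differences inside the intervals given could not be resolved for the 10 genes. The number of genes called was 168 as reported, 309 with DESeq2, 274 with no filter on low counts, 415 with Y-linked expression as a covariate and 800 with a replicate block, and 90 to 158 with 1 library left out (90 without Ndrg3TKO replicate 3, 134 and 158 without replicate 2 of Ndrg3ctrl and Ndrg3TKO, and 100 to 110 without any other). Of the calls, 69% were higher in Ndrg3TKO as reported, 59.5% with the Y-linked covariate and 54.4% with the block. Of the 10 genes, 0 were called under each alternative except the block, which called 2, Tgfbr2 (-0.15, adjusted p = 0.0407 from edgeR, 0.0407 to 0.627 over all alternatives) and Tgfbr3 (0.15, adjusted p = 0.0339 from edgeR, 0.0339 to 0.871). Libraries with the same number correlated in their deviations from the group means at 0.181, 0.415, -0.0550 and 0.301. Libraries with different numbers correlated at -0.328 to 0.157, and of the same-number values only that of replicate 3 lay inside this range. The labels do not say what the number marks, so it was not taken to pair the libraries, and whether it does was not settled. Library numbers in the sample descriptions fall into 3 close runs, 1 with replicate 1 of both groups, 1 with replicates 2 and 3, and 1 with replicate 4. What these runs mark is not stated. Of the other pathway genes, 4 were called with no filter (Eng, Eomes, Klf2 and Ldlrad4) and 6 with the block or the Y-linked covariate (Myc and S1pr1 as well), against 2 otherwise. The cause was not tested. Some log2 fold changes near 0 changed sign, none past the threshold: Ski and Skil to 0.00 with RLE scaling, no filter or at least 10 counts in every library and 0.01 with scaling to the library total, Skil also to 0.00 with the block and the Y-linked covariate, Smad3 to 0.00 and -0.02 with these, and Smad2 to 0.00 with the covariate. With 1 library left out, the log2 fold change ran from -0.02 to 0.02 for Smad2, -0.04 to 0.04 for Smad3, 0.00 to 0.07 for Smad4, -0.03 to 0.04 for Ski, -0.03 to 0.05 for Skil, -0.02 to 0.04 for Itgae and 0.00 to 0.09 for Tgif1. With the longest transcript as the length, control levels were 88.6 RPKM for Tgfb1, 46.7 for Skil, 43.7 for Smad4, 20.9 for Smad3, 19.1 for Tgfbr1 and 7.76 for Smad2.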
